A study of Mus musculus with 12 samples.

Results

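GSCLC_4 is 1 of 4 lines of germline stem cell-like cells (GSCLCs), and it was set against the lines GSCLC_1, GSCLC_2 and GSCLC_3. The comparison uses 8 of the 12 libraries of the series, 2 of GSCLC_4 and 6 of the other GSCLC lines, and every gene with at least 5 RPM (reads per 1e6 counted reads) in at least 2 of these 8 libraries, which holds for 11453 of 26219 genes. All lines carry the AcrAct_EGFP reporter on a C57BL/6 x 129/SvJcl background and grew in a medium with GDNF, bFGF, LIF and EGF. GSCLC_4 and GSCLC_1 came from reconstituted testes kept at 34°C for 3 weeks (condition 1), and GSCLC_2 and GSCLC_3 from reconstituted testes kept at 37°C for 2 weeks and at 34°C for 1 week after that (condition 2). The 4 libraries of the lines GSC_1 and GSC_2, germline stem cells (GSCs) from separate testes of postnatal day 7, serve only as a reference. Each line has 2 libraries from replicate cultures. GSCLC_4 is thus 1 line with 2 cultures: the p-values below measure the spread between cultures of a line and speak for these lines only.

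Germline stem cells are spermatogonial stem cells expanded in culture, where GDNF acts through its receptor pair Gfra1 and Ret, and FGF acts through ERK, to keep the cells dividing without differentiating. GSCLCs are their counterparts whose germ cells were made from pluripotent stem cells and matured in reconstituted testes. The GDNF response holds factors such as Etv5, Bcl6b, Lhx1 and Pou3f1, and genes such as Kit and Stra8 come up as spermatogonia differentiate. SC3-seq, the assay used, amplifies cDNA and reads the 3′ ends of mRNA, so that RPM values follow the number of transcripts and not their length.

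In GSCLC_4, 454 genes were higher and 231 lower than in the mean of the 3 other lines, by limma on log2(RPM + 1) with a Benjamini-Hochberg adjusted p under 0.05. These are 3.96% and 2.02% of the genes tested, or 5.98% in either direction. Counts of called list members below are to be read beside these shares. Over 2-fold differences were found in 126 of the higher and 53 of the lower genes, and since 1 is added to each RPM, folds of low genes come out too small. Among genes of at least 20 RPM the homeobox gene Rhox5 stood furthest above, followed by the homeobox gene Otx1, the glutathione transferase gene Gsta3 and the receptor gene Erbb3. The co-stimulatory ligand gene Tnfsf4, the receptor genes Gprc5c and Gfra2, the histone gene Hist1h2ao and the centromere chaperone gene Hjurp were among the lower ones. With GSCLC_4 reduced to replicate 2 the counts were 37 higher and 56 lower, and with replicate 1 they were 263 and 329, the lone library being assumed to vary like the others. Taking the line as the unit, 1 against 3, limma called 4 genes (0.0349% of those tested), with 1037 at an unadjusted p under 0.05, and Rhox5 was the one among them that was alike in both GSCLC_4 cultures.

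The direction of the count depends on scaling. The median log2 difference over all tested genes was 0.107, and it was 0.194 over the least abundant of 4 equal bins of genes by mean RPM and 0.0417 over the most abundant. When each library was scaled so that its median log2 ratio to the mean library was 0, 237 genes were higher (2.07%) and 396 lower (3.46%), so that 37.4% of the called genes were higher against 66.3% without scaling. Differences below are as deposited, and 0.107 is the level from which to read them. A set of 26 higher and 21 lower genes, picked out after the values were seen, passed the threshold in the same direction with all libraries, without either GSCLC_4 replicate and with median scaling. A call outside these 47 genes was lost with at least 1 of these 3 changes.

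The other lines contributed unequally to the calls. In pairwise contrasts GSCLC_4 had 141 genes higher (1.23%) and 74 lower (0.646%) than GSCLC_1, the other line of condition 1. Against GSCLC_2 there were 44 higher (0.384%) and 49 lower (0.428%), and against GSCLC_3 914 higher (7.98%) and 366 lower (3.2%). Of the called genes, 253 higher and 104 lower ones passed pairwise against GSCLC_3 alone, and set against the mean of GSCLC_1 and GSCLC_2 the counts were 68 and 74. Across genes, which are not independent replicates, Pearson's r of log2 values was 0.965 between both GSCLC_4 libraries, and averaged 0.957 to GSCLC_2, 0.953 to GSCLC_1 and 0.937 to GSCLC_3. Each other line against its own 3 counterparts gave 19 higher and 16 lower genes for GSCLC_1 (0.166% and 0.14%), 93 and 90 for GSCLC_2 (0.812% and 0.786%) and 286 and 573 for GSCLC_3 (2.5% and 5%). These contrasts share all their libraries with the one above.

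**Figure D1:**
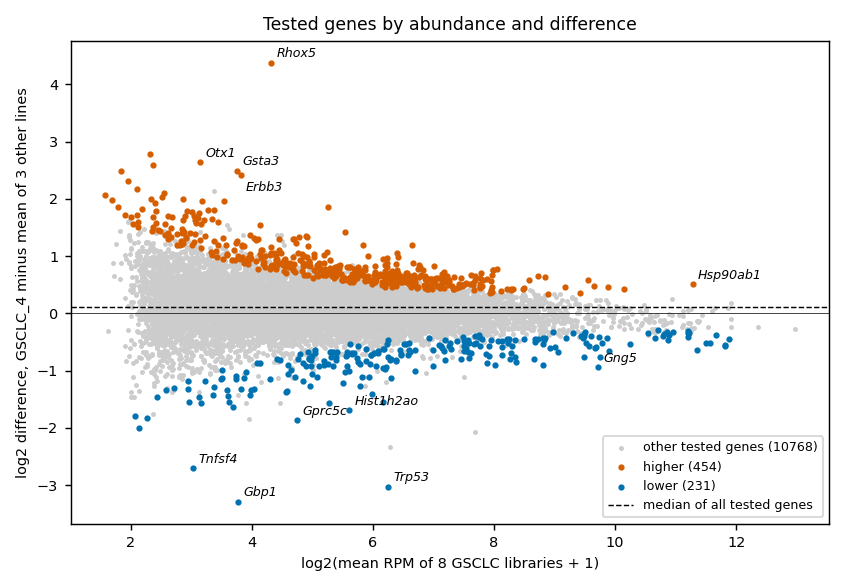
Log2 difference of GSCLC_4 from the mean of the 3 other GSCLC lines against the log2 mean RPM of the 8 GSCLC libraries, 1 point per tested gene. The 454 higher genes are orange and the 231 lower genes blue; the dashed line is the median of all tested genes at 0.107, and Rhox5 lies above every other gene.

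Both GSCLC_4 libraries lay above all 6 other GSCLC libraries in 1643 genes (14.3%) and below all 6 in 611 genes (5.33%). Among the called genes this held for 389 of the 454 higher and 193 of the 231 lower ones. Calls past the threshold against each of the 3 lines separately numbered 7 higher genes (0.0611%) and 12 lower genes (0.105%), and those described below were chosen after their values were seen where they lie outside the rule for named genes. The higher ones were Efr3b, Erbb3, Fstl1, Lamb1, Rcan3, Rhox5 and Tax1bp1. The lower ones were Gfra2, Gprc5c, Hist1h2ao, Hjurp, Rpl15, Rpl26, Rpl34-ps1, Rps16, Rps26, Tnfsf4, Txn1 and Ube2c. Of these 19 genes, 6 higher and 9 lower ones are also in the set of 47, the exceptions being Rcan3, Gfra2, Rpl15 and Rpl26, which ended at adjusted p = 0.0552, 0.0567, 0.0617 and 0.0567 without GSCLC_4 replicate 1.

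Promoters of 300 bases are shown for Rhox5 and Gsta3, which were among the genes furthest above the other lines. Those of Hoxa13 and Hoxa10, whose cluster is described further on, are shown beside them. These promoters were picked by hand, and they differ widely in their content of CpG, the dinucleotide at which mammalian DNA is methylated. They run from 250 bases before to 50 after the annotated start in RefSeq (build GRCm38.p6), 5′ to 3′ on the gene's strand, with each CpG in capitals. The positions are chrX:37754358-37754657 (plus strand) for Rhox5, chr1:21240335-21240634 (plus strand) for Gsta3, chr6:52260831-52261130 (minus strand) for Hoxa13 and chr6:52234890-52235189 (minus strand) for 1 of the 2 listed starts of Hoxa10.
Rhox5: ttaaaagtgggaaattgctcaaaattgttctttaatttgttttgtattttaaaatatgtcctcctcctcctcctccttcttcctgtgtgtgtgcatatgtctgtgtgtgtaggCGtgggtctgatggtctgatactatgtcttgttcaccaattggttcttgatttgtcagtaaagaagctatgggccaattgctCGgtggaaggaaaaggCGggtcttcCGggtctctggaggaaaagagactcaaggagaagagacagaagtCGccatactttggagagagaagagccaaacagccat
Gsta3: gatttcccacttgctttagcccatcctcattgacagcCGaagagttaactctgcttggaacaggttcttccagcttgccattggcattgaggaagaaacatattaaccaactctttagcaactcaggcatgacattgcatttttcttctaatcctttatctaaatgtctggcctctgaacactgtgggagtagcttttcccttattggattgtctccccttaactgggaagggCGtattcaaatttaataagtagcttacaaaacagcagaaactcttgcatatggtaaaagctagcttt
Hoxa13: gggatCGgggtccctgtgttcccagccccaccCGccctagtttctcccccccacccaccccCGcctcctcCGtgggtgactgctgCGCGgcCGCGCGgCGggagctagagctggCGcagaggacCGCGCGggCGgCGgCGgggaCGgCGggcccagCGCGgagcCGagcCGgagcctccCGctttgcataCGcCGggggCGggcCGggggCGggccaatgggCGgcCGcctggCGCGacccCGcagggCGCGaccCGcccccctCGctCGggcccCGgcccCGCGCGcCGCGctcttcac
Hoxa10: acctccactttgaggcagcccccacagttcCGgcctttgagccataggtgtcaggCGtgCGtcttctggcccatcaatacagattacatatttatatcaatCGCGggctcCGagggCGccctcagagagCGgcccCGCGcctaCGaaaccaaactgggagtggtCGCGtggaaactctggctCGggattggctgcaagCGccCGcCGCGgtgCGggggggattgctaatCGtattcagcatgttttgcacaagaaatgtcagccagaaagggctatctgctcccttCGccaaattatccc
Rhox5 has 5 CpG in this window and Gsta3 has 2, and 43.6% and 23.8% of 27025 genes have that many or fewer in their first listed promoter. Hoxa13 has 45 CpG and the Hoxa10 start shown has 21, and 98.4% and 76.7% of genes have that many or fewer. The other Hoxa10 start has 12 CpG (61.5%). CpG was searched as the letters CG, which read the same on both strands. Promoters were found for 364 of the 454 higher, 167 of the 231 lower (72.3%) and 8921 of all tested genes (77.9%), too few for a comparison of CpG content, and methylation was not measured here.

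Rhox5 encodes a homeodomain transcription factor of the reproductive homeobox cluster on the X chromosome, best known from Sertoli cells. It stood at 69.4 and 68.3 RPM in the GSCLC_4 cultures, against 3.42 and 2.84 RPM in GSCLC_1, 1.5 and 2.61 RPM in GSCLC_2, 2.54 and 1.62 RPM in GSCLC_3 and 0.978 to 3.83 RPM in the GSC libraries. Both GSCLC_4 libraries were far above the other 10, with no overlap. The log2 difference was 4.38 ± 0.31 (SE, adjusted p = 6.4e-06 by limma), it passed against each line, and with the line as the unit adjusted p was 0.00914. Rhox5 lies on X at 37754608 to 37808878 (GRCm38), and it was past the threshold in 21 of 21 alternative settings.

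Its neighbours in the cluster were nearer to the other lines. Of 14 Rhox genes listed, 5 passed the filter on low values, and Rhox10 was the other member called higher, at 76.9 and 74.5 RPM against 34.5 to 58.5 RPM (log2 0.77 ± 0.19, adjusted p = 0.0297). Rhox10 missed the threshold with median scaling (adjusted p = 0.0573) and without GSCLC_4 replicate 1 (adjusted p = 0.158) or replicate 2 (adjusted p = 0.0742). Rhox13 stood at 136 and 135 RPM against 126 to 192 RPM, Rhox2a at 45.1 and 34.0 RPM against 30.8 to 39.1 RPM, and Rhox9 at 10.8 and 13.5 RPM against 5.12 to 11.8 RPM, none past the threshold. Rhox8, which like Rhox5 is a gene of Sertoli cells, was listed at 0 in both GSCLC_4 libraries. The Sertoli cell list holds 20 genes, whose sums are given with the other marker lists. Of its 7 tested genes 0 were higher and 1 lower, beside 3.96% and 2.02% of all tested genes. The members given here are examples. Amh, Nr5a1 and Ptgds were at 0 in both GSCLC_4 libraries, Amh also in every other library. Sox9 was at 2.25 and 1.32 RPM against 0.565 to 2.87 RPM, and Gata4 at 9.02 and 2.97 RPM against 0 to 3.31 RPM. Clu was at 24.3 and 14.2 RPM against 7.02 to 23.2 RPM, and Wt1 at 10.8 and 17.2 RPM against 2.97 to 29.8 RPM. Aard was at 9.52 and 9.9 RPM against 2.54 to 11.8 RPM (adjusted p = 0.36 by limma). The part of Sertoli cells in the level of Rhox5 was not tested.

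Erbb3, a receptor for neuregulins that signals together with Erbb2, was at 34.1 and 34.6 RPM in GSCLC_4 and at 2.85 to 9.13 RPM in the 6 other GSCLC libraries. The GSC libraries held 19.4 to 38.5 RPM, so GSCLC_4 lay within the GSC range and the other GSCLC lines below it. The log2 difference of Erbb3 was 2.43 ± 0.30 (adjusted p = 0.00106), and it passed against each line, with adjusted p from 0.000661 to 0.0332. Its gene lies on chromosome 10 at 128567523 to 128589635.

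Among the 29 receptor genes of the growth factor receptor list 23 were tested, of which 2 were higher and 1 lower, and 20 did not pass. Of all tested genes 3.96% were higher and 2.02% lower. Met, the receptor of hepatocyte growth factor, was at 19.8 and 22.1 RPM against 7.28 to 17.5 RPM (log2 0.89 ± 0.24, adjusted p = 0.0452). Met missed the threshold with either GSCLC_4 library left out and with median scaling (adjusted p = 0.069). Gfra2, the receptor for neurturin and a relative of Gfra1, was at 3.51 and 4.29 RPM against 9.43 to 17.7 RPM (log2 -1.64 ± 0.27, adjusted p = 0.00548). Both GSCLC_4 libraries lay below all 6 other GSCLC and all 4 GSC libraries, which held 6.85 to 15.1 RPM. Gfra1, which binds GDNF itself, was at 396 and 331 RPM against 203 to 328 RPM and did not pass (log2 0.33 ± 0.15, adjusted p = 0.183). Ret, the signalling partner of both, was at 238 and 276 RPM against 221 to 288 RPM (log2 0.003 ± 0.12, adjusted p = 0.99).

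Otx1, a homeobox gene of the developing forebrain, and Gsta3, a glutathione transferase, differed by 2.65 ± 0.38 and 2.49 ± 0.30 on the log2 scale (adjusted p = 0.00314 and 0.000874). Otx1 stood at 20.0 and 20.4 RPM in GSCLC_4, at 12.8 and 4.96 RPM in GSCLC_2 and at 0.270 to 2.00 RPM in GSCLC_1 and GSCLC_3. Gsta3 stood at 29.6 and 27.4 RPM in GSCLC_4, at 21.1 and 13.8 RPM in GSCLC_2 and at 0.856 to 2.83 RPM in GSCLC_1 and GSCLC_3. For both genes GSCLC_4 was highest, GSCLC_2 next, and the contrast with GSCLC_2 alone was not past the threshold (adjusted p = 0.215 for Otx1 and 0.353 for Gsta3). Otx1 shares stretches of 50 bases in its last 300 with transcripts of 97 other genes, so its level is uncertain. Pycard, the adaptor of inflammasomes and chosen here after its values were seen, was at 46.8 and 51.5 RPM in GSCLC_4, 81.5 and 77.5 RPM in GSCLC_2, 20.0 and 21.3 RPM in GSCLC_1 and 0.283 and 0.809 RPM in GSCLC_3. Its call (log2 1.86 ± 0.21, adjusted p = 0.000874) sets GSCLC_4 above GSCLC_1 and GSCLC_3 and not above GSCLC_2.

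Of the higher genes, 4 more passed against each line and held in the set of 47. Efr3b, which anchors a lipid kinase at the plasma membrane, was at 30.8 and 35.6 RPM against 6.74 to 15.6 RPM (log2 1.55 ± 0.23, adjusted p = 0.00314). Fstl1, a secreted glycoprotein, was at 79.9 and 115 RPM against 33.1 to 54.0 RPM (log2 1.20 ± 0.20, adjusted p = 0.00613). Lamb1, a chain of basement membrane laminin, was at 162 RPM in both GSCLC_4 libraries against 77.2 to 105 RPM (log2 0.85 ± 0.12, adjusted p = 0.00314). Tax1bp1, an autophagy receptor, was at 366 and 330 RPM against 199 to 234 RPM (log2 0.68 ± 0.10, adjusted p = 0.00328). In none of them did GSCLC_4 overlap with the 6 other GSCLC libraries, whereas the GSC libraries held 13.3 to 19.4 RPM of Efr3b, 47.4 to 95.2 RPM of Fstl1, 37.5 to 58.1 RPM of Lamb1 and 230 to 284 RPM of Tax1bp1. Fstl1 shares 50-base stretches of its end with 18 other genes and is uncertain.

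The lower genes of the same kind were of several functions. Tnfsf4, the ligand OX40L of the tumour necrosis factor family, was at 0.751 and 0.330 RPM in GSCLC_4 against 5.2 to 12.7 RPM (adjusted p = 0.00314). Both GSCLC_4 values are at or below what 3 reads are worth there, 0.751 and 0.990 RPM, so no fold is given. Gprc5c, an orphan receptor induced by retinoic acid, was at 4.26 and 13.9 RPM against 24.3 to 40.8 RPM (log2 -1.86 ± 0.30, adjusted p = 0.005). The GSC libraries held 5.36 to 14.6 RPM of Gprc5c, close to GSCLC_4 and below the other lines. Txn1, the cytosolic thioredoxin, was at 238 and 307 RPM against 465 to 573 RPM (log2 -0.89 ± 0.11, adjusted p = 0.000874), and 317 to 444 RPM in GSC libraries.

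Hjurp and Hist1h2ao belong to chromatin. Hjurp, which loads the centromeric histone CENP-A, was at 34.8 and 19.6 RPM in GSCLC_4 against 47.6 to 128 RPM (log2 -1.40 ± 0.23, adjusted p = 0.00577). Hist1h2ao, a replication-dependent H2A gene, was at 17.3 and 14.8 RPM against 31.0 to 91.0 RPM (log2 -1.69 ± 0.17, adjusted p = 0.000164). GSCLC_4 did not overlap with the other GSCLC lines in either gene, and the GSC libraries reached down to 41.5 RPM of Hjurp and 23.0 RPM of Hist1h2ao. Hist1h2ao shares its end with 48 other genes, so its level is uncertain. Ube2c, the ubiquitin-conjugating enzyme of mitotic exit, was at 145 and 121 RPM against 196 to 232 RPM (log2 -0.70 ± 0.11, adjusted p = 0.005), with an end shared with 122 other genes.

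**Figure D2:**
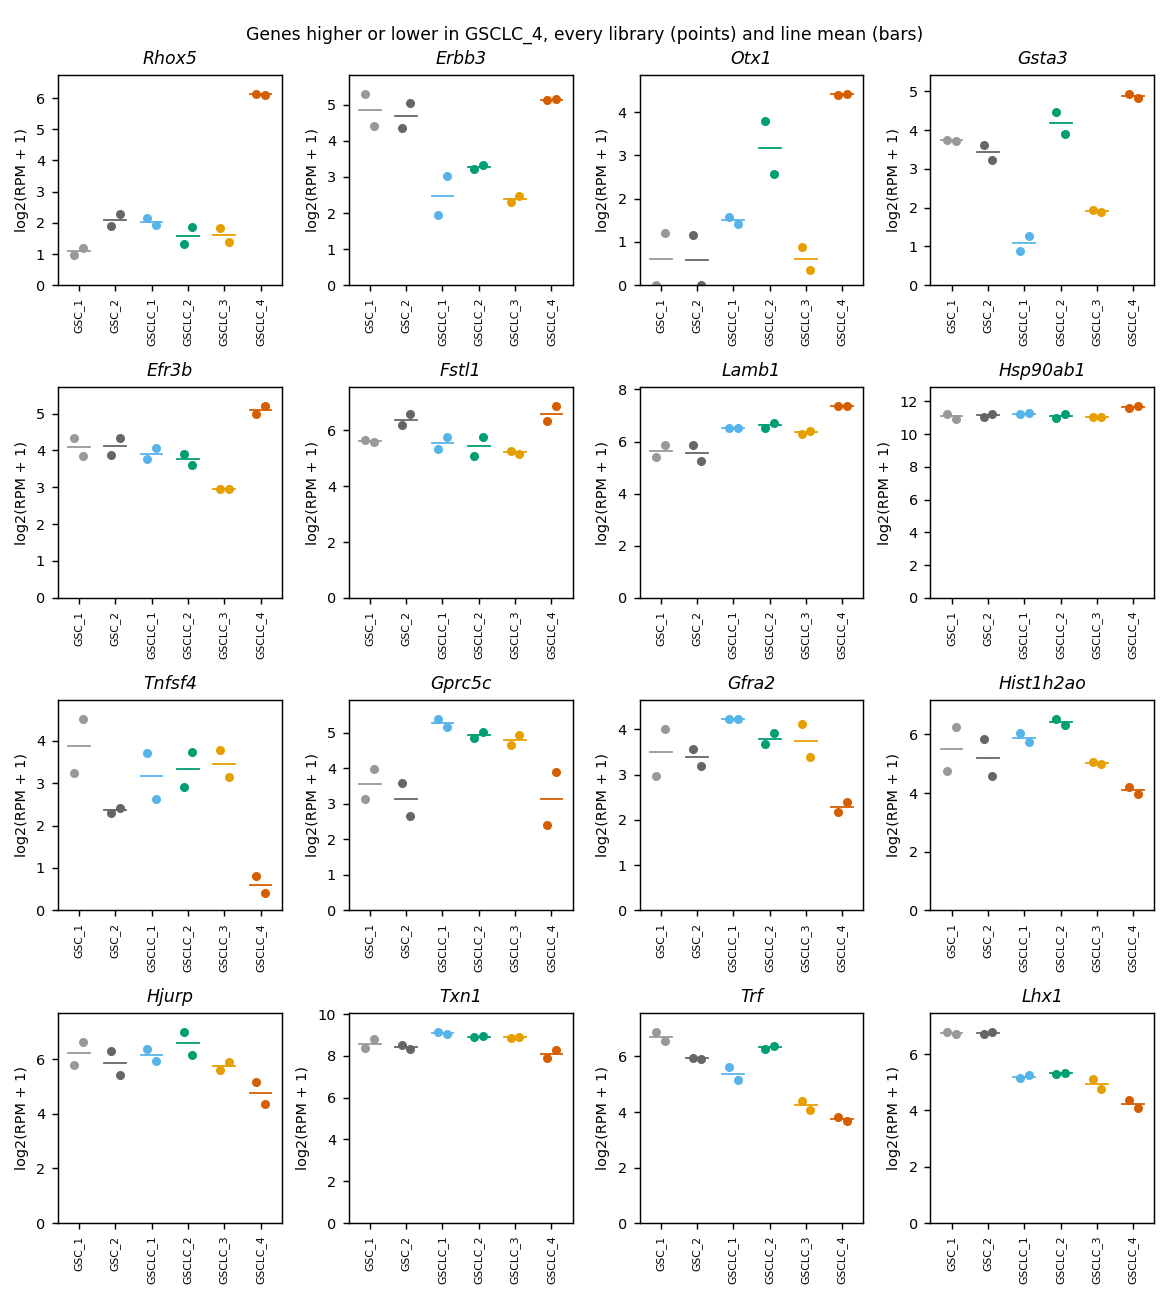
Level as log2(RPM + 1) of 16 genes in each of the 12 libraries (points) with the mean of each line (bars). Rhox5 is high in GSCLC_4 alone, Erbb3 in GSCLC_4 and both GSC lines, and Otx1 and Gsta3 also in GSCLC_2; the lower genes start with Tnfsf4.

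Core genes of germ cell identity were not past the threshold. By limma, 0 of 22 tested members of the germ cell core list were called in either direction (6 at an unadjusted p under 0.05, median log2 0.0687, against 0.107 for all tested genes), and 0 of 14 of the spermatogonial differentiation list (5 at an unadjusted p under 0.05). Dazl, a germ cell RNA-binding protein, was at 1559 and 1513 RPM against 1312 to 1452 RPM (log2 0.15 ± 0.084, adjusted p = 0.289). Ddx4, a germ cell helicase, was at 539 and 558 RPM against 464 to 566 RPM. Kit, the receptor of differentiating spermatogonia, stood at 40.8 and 42.5 RPM against 24.3 to 43.7 RPM (log2 0.48 ± 0.18, adjusted p = 0.122). Stra8, induced by retinoic acid, was at 16.3 and 21.4 RPM against 2.96 to 17.4 RPM (log2 1.07 ± 0.33, adjusted p = 0.0672), and Sohlh1, a differentiation factor, at 2.25 and 9.90 RPM against 1.25 to 51.5 RPM (adjusted p = 0.0957). A p that misses the threshold does not show that Kit, Stra8 or Sohlh1 was at the same level in these lines, and the cultures of GSCLC_4 spread widely in Sohlh1.

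The self-renewal list for spermatogonial stem cells had 33 tested genes. Of these 2 were higher and 3 lower (3.96% and 2.02% over all tested genes), and 28 did not pass. The higher ones were Sall4, a zinc finger factor of stem cells, at 107 and 125 RPM against 64.2 to 85.4 RPM (log2 0.55 ± 0.14, adjusted p = 0.0341), and the adhesion gene Epcam at 235 and 136 RPM against 103 to 135 RPM (log2 0.62 ± 0.17, adjusted p = 0.0408). Lower were Lhx1, a GDNF-induced homeobox gene, at 19.8 and 15.8 RPM against 25.9 to 39.1 RPM (log2 -0.92 ± 0.18, adjusted p = 0.0128), Pou3f1, also GDNF-induced, at 23.5 and 29.4 RPM against 35.9 to 57.7 RPM (adjusted p = 0.0402), and Dusp6, an ERK phosphatase, at 91.4 and 127 RPM against 142 to 335 RPM (adjusted p = 0.0416). GSC libraries held 103 to 110 RPM of Lhx1 and 63.8 to 94.7 RPM of Pou3f1, so GSCLC_4 lay furthest from them. Without GSCLC_4 replicate 1 the list had 0 higher and 1 lower, Lhx1 at adjusted p = 0.0438, and Lhx1 was at 0.0656 without replicate 2. Sall4 shares its end with another gene. Etv5, Id4, Zbtb16, Nanos2 and Bcl6b did not pass, with log2 differences of 0.34, -0.30, -0.13, 0.34 and 0.15.

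The targets of FGF and GDNF signalling through ERK were called both ways, 2 of 27 higher, 3 lower and 22 not past the threshold (median log2 -0.0506). Over all tested genes 3.96% were higher and 2.02% lower. Junb, an immediate early factor, was at 32.3 and 28.0 RPM against 43.6 to 57.1 RPM (log2 -0.75 ± 0.15, adjusted p = 0.0148), and Dusp4 was the third lower member beside Dusp6. Dusp4 stood at 12.5 and 7.59 RPM in GSCLC_4 and spread from 6.52 to 89.3 RPM in the others. Spry2, an inhibitor of receptor kinase signalling, was higher at 89.2 and 51.8 RPM against 28.8 to 49.4 RPM (adjusted p = 0.0268). The early response gene Egr4 was also higher, at 467 and 370 RPM against 227 to 567 RPM (adjusted p = 0.0341). Egr4 lies in the segment of distal chromosome 6 described further on, and GSCLC_2 held 567 and 502 RPM of it. None of the 5 was past the threshold without GSCLC_4 replicate 1.

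In the piRNA pathway, which silences transposons in germ cells, 4 of 24 tested genes were higher and 0 lower. These shares were 3.96% and 2.02% over all tested genes. Piwil2, a PIWI protein, was at 339 and 277 RPM against 150 to 224 RPM (log2 0.71 ± 0.12, adjusted p = 0.00533), and Tdrd5, which helps make piRNA precursors, at 115 and 106 RPM against 44.9 to 92.1 RPM (log2 0.73 ± 0.14, adjusted p = 0.0126). Piwil4, the nuclear PIWI protein, was at 43.6 and 60.7 RPM against 27.2 to 37.9 RPM (adjusted p = 0.0416), and Spocd1, which acts in piRNA-directed DNA methylation, at 15.5 and 11.5 RPM against 2.00 to 17.8 RPM (adjusted p = 0.047). The median of the list was 0.109, next to 0.107 for all tested genes, and 20 members did not pass. Without GSCLC_4 replicate 1 the list had 0 higher genes, and with median scaling 2 higher and 1 lower. In the meiotic prophase list the cohesin gene Stag3 was the only 1 of 23 called, at 333 and 336 RPM against 183 to 310 RPM (adjusted p = 0.0438), and it missed the threshold without GSCLC_4 replicate 1 (adjusted p = 0.173).

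The lists of pluripotency, early germ cells and DNA methylation had 2 of 19, 1 of 12 and 2 of 15 tested genes called, beside 5.98% of all tested genes. In the pluripotency list 1 of 19 was higher (Sall4) and 1 lower (Fbxo15, adjusted p = 0.0439). Sox2 stood at 57.6 and 50.1 RPM against 22.3 to 128 RPM, and Pou5f1 at 4.76 and 7.92 RPM against 0.565 to 8.56 RPM, neither past the threshold. In the primordial germ cell list Rhox5 was the only call among 12 members. In the DNA methylation list of 15, Tet3, an oxidase of methylcytosine, was at 18.8 and 29.0 RPM against 7.92 to 14.3 RPM (adjusted p = 0.0432), and Trim28, a corepressor of transposons and imprints, at 415 and 515 RPM against 582 to 668 RPM (log2 -0.43 ± 0.099, adjusted p = 0.0224). Neither held without GSCLC_4 replicate 1. Tet3 lies in the segment of distal chromosome 6 described further on. Dnmt3b was at 53.1 and 73.9 RPM against 42.0 to 59.2 RPM and did not pass.

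Of 36 tested imprinted genes 3 were higher and 1 lower (3.96% and 2.02% over all tested genes), with 32 not past the threshold. Phlda2, a placental growth restrictor expressed from the maternal allele, was at 44.1 and 47.2 RPM in GSCLC_4 and 37.1 and 32.1 RPM in GSCLC_2, against 9.43 to 15.8 RPM in GSCLC_1 and GSCLC_3 and 3.57 to 7.75 RPM in GSC libraries (log2 1.33 ± 0.22, adjusted p = 0.0055). GSCLC_4 was highest, though not past the threshold against GSCLC_2 (adjusted p = 0.502). Mest was at 167 and 135 RPM against 28.3 to 138 RPM (adjusted p = 0.0454) and Cd81 at 48.3 and 42.9 RPM against 21.6 to 34.2 RPM (adjusted p = 0.0318). Gnas, the stimulatory G protein subunit, was at 190 and 133 RPM against 207 to 316 RPM, below all GSC libraries too (log2 -0.74 ± 0.16, adjusted p = 0.0173). Phlda2 passed with either GSCLC_4 library left out (adjusted p = 0.0438 without replicate 1 and 0.022 without replicate 2). Gnas passed without replicate 1 (adjusted p = 0.0186) and missed the threshold without replicate 2 (0.125), and Mest and Cd81 missed it without either. Mest and Gnas share transcript ends with another gene. H19 stood at 9.77 and 34.0 RPM, so that the GSCLC_4 cultures differed more from each other than from the 4.51 to 23.4 RPM of the others.

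Hox genes lie in clusters, and their products are homeodomain factors that give embryonic regions their identity from head to tail. The members of the Hoxa cluster given here are at a level where the filter on low values passes mainly genes that are high in some line, so how many of them were called has no weight of its own. Hoxa10 was at 15.8 and 23.7 RPM in GSCLC_4 and 20.6 and 14.1 RPM in GSCLC_2, against 0.270 to 6.38 RPM in GSCLC_1 and GSCLC_3 and 1.51 to 3.91 RPM in GSC libraries. Hoxa13 was at 12.3 and 10.6 RPM in GSCLC_4, 10.3 and 12.3 RPM in GSCLC_2 and 0 to 3.14 RPM in GSCLC_1 and GSCLC_3. In Hoxa10 and Hoxa13 GSCLC_4 and GSCLC_2 overlapped (adjusted p = 0.863 and 0.987 between them).

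Hoxa3 lies towards the other end of the cluster. It stood at 7.77 and 13.2 RPM in GSCLC_4 and at 0 to 3.68 RPM in the 6 others, GSCLC_2 among them. Hoxa3, like Hoxc8 below, passed the filter through the GSCLC_4 libraries alone and so had to differ, and the contrast with GSCLC_2 alone was not past the threshold (adjusted p = 0.197). Evx1 was at 9.02 and 7.59 RPM against 0 to 5.74 RPM (adjusted p = 0.0308). The call of Hoxa10 held with either GSCLC_4 library left out (adjusted p = 0.0303 without replicate 1 and 0.0438 without replicate 2), and those of Hoxa3, Hoxa13 and Evx1 missed the threshold both ways. Hoxa3 shares its end with 4 other genes and is uncertain. Tax1bp1, given above, and Skap2, an adaptor of immune cells, are genes of the same stretch of chromosome 6, at 52713692 to 52766780 and at 51859165 to 52012549. Skap2 was at 160 and 142 RPM in GSCLC_4 against 59.6 to 101 RPM (log2 0.88 ± 0.14, adjusted p = 0.00475).

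Among the other Hox genes, Hoxc8 was at 7.51 and 8.91 RPM in GSCLC_4 and at 0 to 2.60 RPM in the 6 others. It passed the filter on low values through the GSCLC_4 libraries alone and so had to differ, and it missed the threshold without GSCLC_4 replicate 1 (adjusted p = 0.136) and without replicate 2 (0.111). Hoxc9 was at 13.3 and 8.58 RPM against 0.809 to 7.80 RPM (adjusted p = 0.0198). Hoxb6 was lower, at 6.26 and 2.31 RPM against 9.70 to 19.6 RPM in the other GSCLC lines and 63.1 to 86.1 RPM in GSC libraries (adjusted p = 0.0204). Hoxb6 passed without GSCLC_4 replicate 1 (adjusted p = 0.0259) and not without replicate 2 (0.156), and Hoxc9 the reverse (0.224 and 0.0415). The list of other homeobox developmental regulators had 0 of 16 past the threshold by limma, and 3 at an unadjusted p under 0.05.

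**Figure D3:**
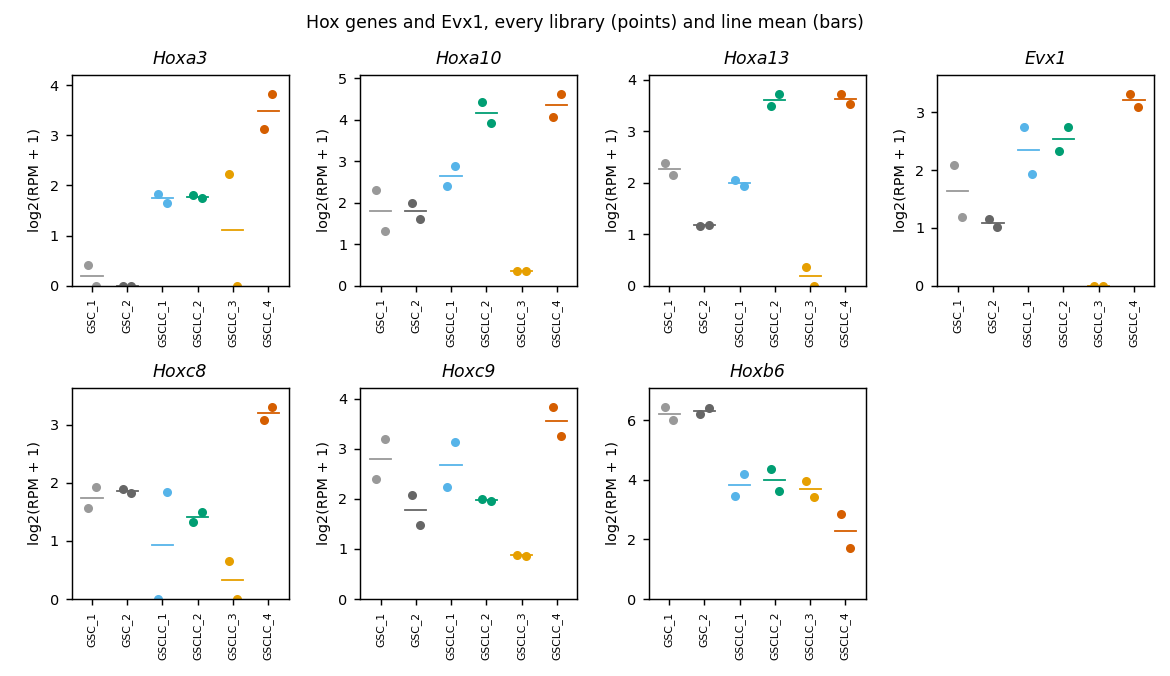
Level as log2(RPM + 1) of 6 Hox genes and Evx1 in each of the 12 libraries (points) with line means (bars). Hoxa10 and Hoxa13 are high in GSCLC_2 and GSCLC_4, Hoxa3 in GSCLC_4, and Hoxb6 is lowest in GSCLC_4 and highest in the GSC lines.

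Subunits of oxidative phosphorylation, the mitochondrial respiratory chain and ATP synthase, were called mostly in the lower direction. Of 52 tested members 11 were lower, 1 higher and 40 not past the threshold, beside 2.02% lower and 3.96% higher of all tested genes. Their median log2 was -0.171, and 42 of 52 were below 0. The 52 genes summed to 19880 and 18580 RPM in GSCLC_4, to 21170 to 23140 RPM in the 6 others and to 20380 to 22590 RPM in GSC libraries, so both GSCLC_4 sums lay below all other libraries. Atp5g1, a subunit of the ATP synthase ring, was at 949 and 867 RPM against 1170 to 1462 RPM (log2 -0.53 ± 0.085, adjusted p = 0.005). Slc25a5, the ADP/ATP carrier, was at 201 and 218 RPM against 257 to 405 RPM (log2 -0.70 ± 0.10, adjusted p = 0.00314). Atp5l and Cox7a2 differed by -0.59 and -0.65. The complex I subunit gene Ndufb8 stood at 153 RPM in GSCLC_4 replicate 1 and 269 RPM in replicate 2 against 334 to 383 RPM, and its difference of -0.85 was -0.44 without replicate 1 (adjusted p = 0.101). Ndufa9 was the higher member (log2 0.41, adjusted p = 0.0299). The list had 2 lower genes without GSCLC_4 replicate 1, 6 without replicate 2 and 16 with median scaling. Atp5g1, Slc25a5, Atp5l and Ndufb8 share transcript ends with 28, 4, 14 and 1 other genes.

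The cytosolic ribosomal protein genes, chosen after their values were seen, were also called only lower. By limma, of 85 tested genes 25 were lower (29.4%) and 0 higher, the median log2 was -0.209, and 73 of 85 were below 0. Lower calls made up 2.02% of all tested genes and higher calls 3.96%. In GSCLC_4 they summed to 131683 and 128974 RPM, and in the 6 other GSCLC libraries to 141221 to 170815 RPM. GSC libraries held 129829 to 162987 RPM, so 1 GSCLC_4 sum lay within that range and the other just under it. Rps16 was at 2476 and 2801 RPM against 3561 to 4317 RPM (log2 -0.58 ± 0.082, adjusted p = 0.00314), and Rps26 at 3063 and 2808 RPM against 3756 to 4320 RPM (log2 -0.45 ± 0.077, adjusted p = 0.0063). Without GSCLC_4 replicate 1 the count was 5 lower, without replicate 2 it was 13 lower and 2 higher, and with median scaling 35 lower. Rps16 and Rps26 share transcript ends with 89 and 5 other genes. Because RPM of a library sum to a fixed total, lower abundant genes and higher low-abundance genes are linked in these values, and whether RNA per cell differed was not tested.

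Heat shock and glycolysis genes showed a few higher members. Hsp90ab1, the constitutive cytosolic HSP90, was at 3076 and 3304 RPM against 2023 to 2482 RPM and 1959 to 2393 RPM in GSC libraries (log2 0.51 ± 0.085, adjusted p = 0.00568). Hspa4l, a nucleotide exchange factor for HSP70, was at 150 and 155 RPM against 64.5 to 106 RPM (log2 0.78 ± 0.13, adjusted p = 0.005), and Stip1, which links HSP70 and HSP90, at 555 and 570 RPM against 394 to 524 RPM (adjusted p = 0.041). In all 3 genes both GSCLC_4 libraries lay above all other 10. Of 22 tested heat shock genes 3 were thus higher, 0 lower and 19 not past the threshold, with a median log2 of 0.1. Higher calls made up 3.96% of all tested genes and lower calls 2.02%. Among 21 glycolysis genes 2 were higher, Pfkp (log2 0.53, adjusted p = 0.0414) and the glucose transporter gene Slc2a3 (log2 0.64, adjusted p = 0.0282), and neither passed without GSCLC_4 replicate 1 or without replicate 2. Pfkp was at 165 and 138 RPM in GSCLC_2 and at 162 and 157 RPM in GSCLC_4, and Slc2a3 at 196 and 187 RPM in GSCLC_2 and at 192 and 240 RPM in GSCLC_4, and neither difference between these lines passed (adjusted p = 0.855 and 0.712). Slc2a3 lies in the segment of distal chromosome 6 described further on. Hsp90ab1 shares its end with 5 other genes.

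In the cell cycle lists 1 of 29 G2 and M phase genes was higher and 2 lower, beside a median log2 of 0.0278. All tested genes gave 3.96% higher and 2.02% lower. Cenpf, a kinetochore protein, was at 236 and 212 RPM against 135 to 186 RPM (adjusted p = 0.0395). Lower were Ube2c, already given, and Birc5, the survivin of the chromosomal passenger complex, which stood at 31.6 RPM in replicate 1 and 99.6 RPM in replicate 2 of GSCLC_4 against 90.8 to 139 RPM. Birc5 thus was low in 1 culture and within the range of the other lines in the other one. In the list of G1 regulators Cdkn1b, a cyclin-dependent kinase inhibitor, was the 1 call of 19. It was at 16.5 and 20.1 RPM against 6.85 to 10.0 RPM (adjusted p = 0.0305), and missed the threshold with either GSCLC_4 library left out. Cdkn1b lies in the segment of distal chromosome 6 described further on. Ccnd2, which GDNF induces, was at 277 and 321 RPM against 197 to 372 RPM.

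The tumour suppressor gene Trp53 was called lower through 1 library. It was at 1.00 RPM in GSCLC_4 replicate 1 and 59.7 RPM in replicate 2, against 68.2 to 104 RPM in the 6 others (log2 -3.03 ± 0.76, adjusted p = 0.0318), and adjusted p was 0.181 without replicate 1. Of 23 tested p53 targets 1 was higher and 1 lower, beside 3.96% higher and 2.02% lower of all tested genes. Mdm2, which degrades p53, was at 220 and 186 RPM against 124 to 157 RPM (log2 0.59 ± 0.13, adjusted p = 0.019), alike in both cultures while Trp53 was not. Eda2r, a receptor of the tumour necrosis factor family, was at 5.76 and 3.96 RPM against 8.27 to 16.4 RPM (adjusted p = 0.0257). Neither passed without GSCLC_4 replicate 1. Trp53 shares transcript bases with a pseudogene.

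GSCLC_4 replicate 1 stood apart in this respect. In 35 genes with a mean of at least 20 RPM it lay over 2-fold, on the log2(RPM + 1) scale, below all 11 other libraries, against 0 to 5 such genes in each other GSCLC library and 1 in GSCLC_4 replicate 2. Of these 35 genes 10 were called lower: Trp53, Birc5, C1ql1, Ccdc101, Gtpbp1, Prmt7, Rpa1, Smg5, Tmem132e and Wbscr22. Tmem132e was at 17.3 and 38.9 RPM against 45.6 to 163 RPM, and Smg5, a factor of nonsense-mediated decay, at 26.6 and 60.7 RPM against 74.5 to 97.0 RPM. Its depth was not low: its steps of RPM imply 3992078 counted reads, within the 3031705 to 4230229 of the 8 GSCLC libraries. In 19 of the 231 lower calls replicate 1 lay over 2-fold below replicate 2, and in 2 of the 454 higher calls the replicates lay over 2-fold apart. Fits without this library are given with the genes and counts above. What set it apart was not tested.

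**Figure D4:**
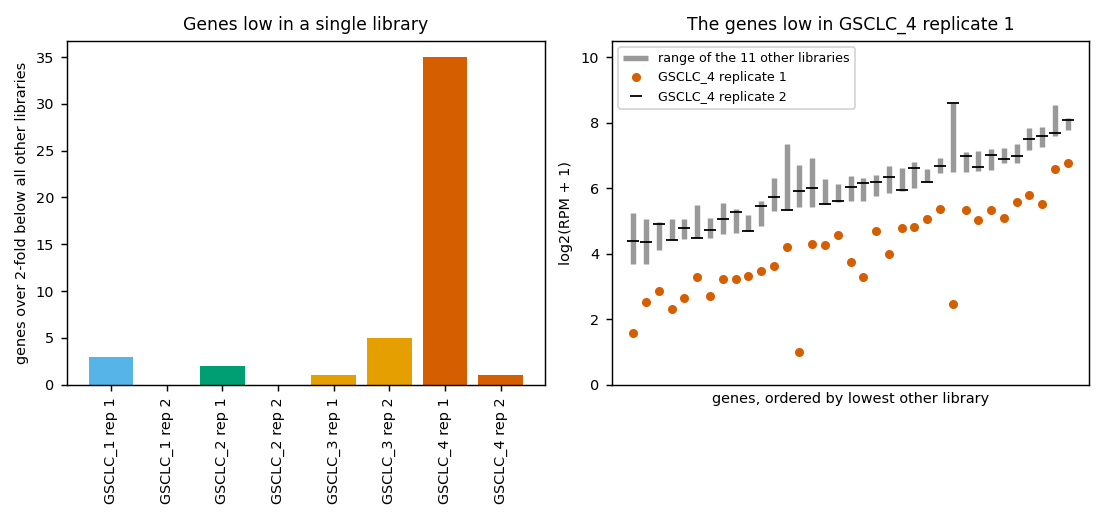
Left, number of genes in each GSCLC library that lay over 2-fold below all other libraries of the series; right, log2(RPM + 1) of the 35 such genes of GSCLC_4 replicate 1 with GSCLC_4 replicate 2 and the range of the 11 other libraries (grey bars). GSCLC_4 replicate 1 has 35 genes against 0 to 5 in the others.

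Calls gathered on chromosomes 6 and 3, at segments whose starts were chosen after the values were seen, so no test is given. Distal chromosome 6, from 80 Mb on, held 310 tested genes, of which 77 were higher (24.8%) and 3 lower (0.968%), with a median log2 of 0.431. Distal chromosome 3, from 140 Mb on, held 47 tested genes with 0 higher and 15 lower (31.9%) and a median log2 of -0.525. Against the mean of the GSC libraries the median on distal chromosome 6 was 0.563 in GSCLC_4 and 0.474 in GSCLC_2, 1.48-fold and 1.39-fold, while GSCLC_1 and GSCLC_3 stood at 0.0111 and -0.0947. On distal chromosome 3 it was -0.886 in GSCLC_4 and -0.923 in GSCLC_2, 0.541-fold and 0.527-fold, against 0.00865 in GSCLC_1 and -0.0599 in GSCLC_3. GSCLC_4 thus shared both shifts with GSCLC_2, a line of the other condition. Between these lines 0 genes of distal chromosome 3 and 1 of distal chromosome 6 were called. Over all tested genes that contrast called 0.384% higher and 0.428% lower, so these counts have little weight. DNA was not measured here, so RNA levels and copy number cannot be told apart. Outside both segments 377 genes were higher and 213 lower, with a median log2 of 0.101. The stretch of 50 to 55 Mb on chromosome 6, also outside them, was picked after the values were seen. It held 25 tested genes, 11 higher and 0 lower, with a median log2 of 0.642. Skap2, Tax1bp1 and the Hoxa genes lie there, and Hoxa3 passed the filter through GSCLC_4 alone. Against the GSC mean this stretch had medians of 0.407 in GSCLC_4, 0.17 in GSCLC_1, -0.0155 in GSCLC_2 and -0.395 in GSCLC_3.

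On distal chromosome 6, Rpn1, a subunit of the oligosaccharyltransferase, was at 974 and 990 RPM in GSCLC_4 and 902 and 866 RPM in GSCLC_2, against 542 to 598 RPM in GSCLC_1 and GSCLC_3. Cmas, which activates sialic acid, was at 256 and 215 RPM in GSCLC_4, 174 and 177 RPM in GSCLC_2 and 128 to 155 RPM in GSCLC_1 and GSCLC_3. On distal chromosome 3, Gng5, a G protein gamma subunit, was at 491 and 480 RPM in GSCLC_4 and 677 and 685 RPM in GSCLC_2, against 1026 to 1211 RPM in GSCLC_1 and GSCLC_3 (log2 -0.94 ± 0.088, adjusted p = 0.000151). The splicing factor gene Srsf11 was at 84.2 and 95.7 RPM in GSCLC_4, 110 and 107 RPM in GSCLC_2 and 176 to 209 RPM in GSCLC_1 and GSCLC_3. Gng5 and Srsf11 share transcript ends with 1 and 4 other genes. Gbp1, an interferon-induced GTPase of the same segment and chosen after its values were seen, was listed at 0 in both GSCLC_4 libraries, at 0 and 1.3 RPM in GSCLC_2 and at 16.8 to 39.6 RPM in GSCLC_1 and GSCLC_3 (adjusted p = 0.00103). Of the set of 47 genes 8 lie on distal chromosome 6 and 4 on distal chromosome 3.

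**Figure D5:**
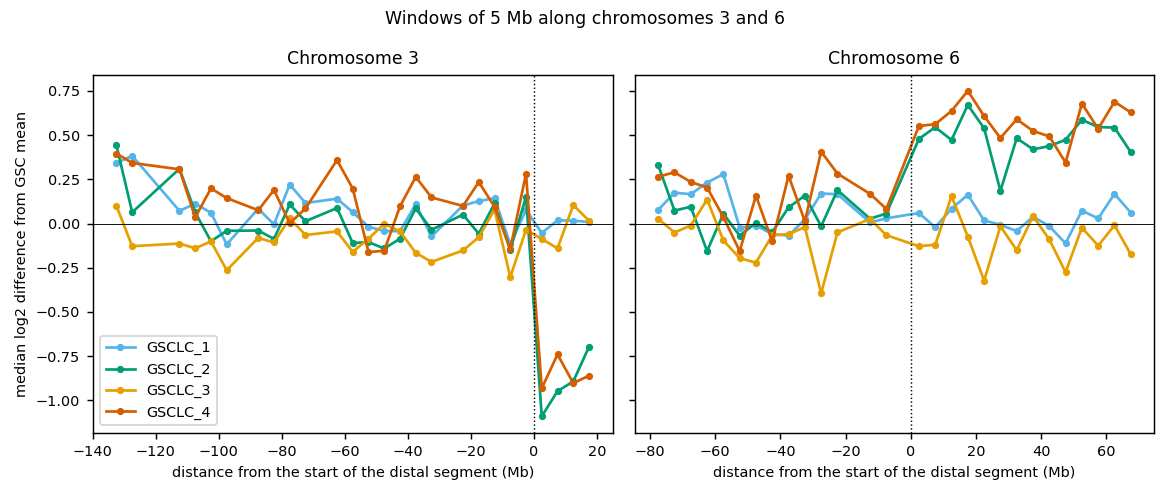
Median log2 difference of each GSCLC line from the mean of the GSC libraries in windows of 5 Mb along chromosomes 3 and 6, by distance in Mb from the start of the distal segment (dotted line). GSCLC_2 and GSCLC_4 drop together past that line on chromosome 3 and rise together on chromosome 6, while GSCLC_1 and GSCLC_3 stay near 0.

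On chromosome 8 the median was below 0. Its 615 tested genes had a median log2 of -0.0638 in the comparison of GSCLC_4 with the 3 lines, with 11 higher and 34 lower. Against GSCLC_3 the median was -0.349, and against GSCLC_1 and GSCLC_2 0.0589 and 0.0705. Relative to the GSC mean the medians were 0.414 in GSCLC_3 and 0.0575 in GSCLC_4, so on chromosome 8 GSCLC_3 was further above the GSC mean than GSCLC_4. Chromosome X, which holds Rhox5 and Rhox10, had 466 tested genes, 31 higher and 9 lower, with a median log2 of 0.2. Over all tested genes the median was 0.107, with 3.96% higher and 2.02% lower.

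Markers of other testis cells were counted by list, beside 3.96% higher and 2.02% lower of all tested genes. In the Sertoli cell list 1 of 7 tested genes was lower, Trf, the iron carrier transferrin, at 13 and 11.9 RPM in GSCLC_4 and 20.1 and 15.9 RPM in GSCLC_3 against 34.3 to 81.7 RPM in GSCLC_1 and GSCLC_2 (log2 -1.57 ± 0.19, adjusted p = 0.000968). Trf did not pass against GSCLC_3 (adjusted p = 0.179), and it shares its end with 85 other genes. Over the 20 Sertoli cell genes the sum was 571 and 645 RPM against 596.5 to 707 RPM. The Leydig and peritubular list of 14 summed to 26.0 and 18.8 RPM against 18.0 to 58.4 RPM, with Cyp17a1, Hsd3b1, Hsd3b6, Hsd17b3 and Lhcgr at 0 in all 8 GSCLC libraries and 0 of 2 tested genes called by limma (1 at an unadjusted p under 0.05). The macrophage and endothelium list of 18 summed to 32.3 and 41.2 RPM against 16.8 to 31.4 RPM, both GSCLC_4 sums lying above all 6 others, with 0 of 2 tested genes called (0 at an unadjusted p under 0.05) and Tyrobp at 0 in all 8.

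Of 23 tested fibroblast genes, which mark feeder or stromal cells, 1 was higher and 22 did not pass. Their median log2 was 0.461, against 0.107 for all tested genes, of which 3.96% were higher and 2.02% lower. At an unadjusted p under 0.05 by limma 8 of the 23 were higher and 0 lower, beside 1917 and 886 of all 11453 tested genes. Col1a1, the main chain of type I collagen, was at 120 and 126 RPM against 48.1 to 88.4 RPM (log2 0.86 ± 0.18, adjusted p = 0.0157), and at adjusted p = 0.0791 without replicate 1. The list summed to 977 and 1114 RPM against 674.5 to 1208 RPM in the other GSCLC lines and 1071 to 1892 RPM in GSC libraries, so the sums overlapped. The matrix genes Fstl1 and Lamb1, given above as higher, stood beside this list, and its part in their difference was not tested. In bulk libraries more cells of a type and more RNA per cell cannot be told apart.

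By limma, cholesterol synthesis had 0 of 22 genes and the interferon response 0 of 11 past the threshold (6 and 3 at an unadjusted p under 0.05), with medians of 0.144 and 0.0697. The adhesion and surface list had 1 of 21 higher, Epcam, and 1 lower, Cd109, at 11.3 and 13.2 RPM against 12.8 to 48.1 RPM (adjusted p = 0.0306). Over all tested genes 3.96% were higher and 2.02% lower. Single genes outside the lists included Bcar3, Pkp2, Aldh3a2, Col11a1 and Apba3 among the 15 largest higher differences, between 1.29 and 1.60 on the log2 scale. Pkp2, a desmosome protein, was at 39.3 and 49.5 RPM against 9.97 to 27.4 RPM (adjusted p = 0.005) and was in the set of 47. Col11a1, a fibrillar collagen, was at 21.5 and 19.5 RPM against 3.11 to 7.13 RPM (adjusted p = 0.01), and at adjusted p = 0.0986 without GSCLC_4 replicate 1. Among the lower ones Sall3, a zinc finger factor, was at 24.3 and 24.4 RPM against 33.1 to 69.9 RPM (log2 -1.02 ± 0.16, adjusted p = 0.00431).

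The called genes were also set beside the GSC lines. The GSCLC_4 mean was nearer to the GSC mean than the mean of the other GSCLC lines was in 140 of the 685 called genes (20.4%), 93 higher and 47 lower, beside 4502 of all tested genes (39.3%). Erbb3 and Gprc5c are examples of those nearer to GSC, and Rhox5, Lamb1, Lhx1 and Phlda2 of those further from it. The called genes were picked for a difference of GSCLC_4 from the other lines, which by itself tends to lower the share of 20.4%. The GSCLC_4 mean also rests on fewer libraries than the mean of the other lines, which tends to lower both shares. Whether GSCLC_4 as a line lies further from GSC therefore cannot be read from them.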

How the data were processed

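SC3-seq libraries of 4 GSCLC and 2 GSC lines, 2 cultures each, were deposited by the authors as RPM per gene in 1 table. The tools named in the submitters' processing notes are cutadapt 1.3, TopHat 1.4.1 and Cufflinks 2.2.0, with the mouse build mm10 (GRCm38). RPM sum to 999885 to 999962 per library. The steps between low values imply 3031705 to 4644183 counted reads per library, so 3 reads are worth 0.646 to 0.99 RPM. That limit covers counting error only.

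A gene was tested where 2 or more of the 8 GSCLC libraries held 5 RPM or more, on log2(RPM + 1) with limma 3.58.1 (trend) in R 4.3.3, with a coefficient per line, Benjamini-Hochberg adjustment over 11453 genes and a threshold of 0.05. The main contrast was GSCLC_4 minus the mean of the 3 other lines. On simulated data for this contrast, run on 11453 genes, 200 were changed, all drawn from genes with a mean level above 20 RPM. The fit recovered 91% of changes of log2 1 and 100% of changes of log2 2. Of the calls 6.2% and 10.7% were false, more than the nominal share. Changes in genes of lower level were not simulated, so their recovery is not known.

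Named genes were, per direction, the 15 with the largest difference among called genes of at least 20 RPM on the higher side and with both GSCLC_4 libraries outside the 6 others, then up to 6 called members per list, 23 germ cell and marker genes in every case, and the 6 most abundant genes of the windows farthest from the median. Genes named outside this rule are stated as chosen after their values were seen, as are Skap2, Rpn1, the Rhox neighbours, the genes low in 1 library and the ribosomal set. The genes, lists and comparison were chosen with earlier results of these data known. Positions and promoters came from RefSeq (GRCm38.p6), and transcript ends from GENCODE. Alternatives covered the pseudocount, the filter, scaling, the unit of replication, the lines compared, a replicate block and each library left out. A gene of a list is not reported here.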

Additional observations from a re-analysis of the deposited data

Results flagged for a closer look

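The number of genes that lay over 2-fold below every other library of the series was 35 in GSCLC_4 replicate 1 and 0 to 5 in the 7 other GSCLC libraries. Its gap to the nearest library was 0.857 of the whole range over these 8 libraries, above Dixon's critical value for 1 sample far from the others. For 1 measure fixed in advance and normally spread, chance would mark about 1 in 20 groups in this way. Several library measures were searched and this one is a count, so that rate does not hold here. The measure and the use of all 8 GSCLC libraries as 1 group were chosen after the values were seen.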

How the results depend on the processing

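The counts of genes higher and lower than the mean of the 3 lines, 454 and 231, depended on most choices. Leaving out 1 library gave 37 to 483 higher and 56 to 329 lower genes. These counts were 212 and 108 without GSCLC_1 replicate 1, 200 and 109 without GSCLC_1 replicate 2, 267 and 146 without GSCLC_2 replicate 1 and 177 and 115 without GSCLC_2 replicate 2. They were 37 and 56 without GSCLC_4 replicate 1, and 263 and 329 without GSCLC_4 replicate 2, where 78 and 319 of the 685 genes were called in the same direction. The counts against each of the 3 lines, 7 and 12, ranged from 1 to 18 and from 1 to 128. Without a filter on low values 72 and 30 genes were called, and 1 and 1 against each line, with 17944 genes tested. On line means 1 gene was higher and 3 lower. Median scaling gave 237 and 396, and 2 and 31 against each line, with 468 of the 685 genes called in the same direction, and quantile normalization gave 251 higher and 287 lower. A pseudocount of 5 gave 12 genes higher than each line. Against GSCLC_1 only the counts were 141 and 74, against GSCLC_1 and GSCLC_2 68 and 74, and against GSCLC_1 and GSCLC_3 760 were higher. Apart from what fewer samples or more tested genes set by construction, the cause was not tested. Replicate numbers did not pair the samples (correlations of deviations between lines from -0.0892 to 0.106), and with the replicate as a block the counts were 471 and 242, and 9 and 14 against each line. A count test (edgeR) on recovered reads was planned and not run, since whole reads could not be recovered for all low values.

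Over named genes, list counts and the medians of both segments together, 1842 values stayed the same and 73 list counts moved. For a gene, the same meant an unchanged direction and side of the threshold. Among the gene values 546 lost the threshold and 18 gained it. A total of 26 changed sign, none of them in a called gene. Ret was at -0.0108 with quantile normalization, -0.0997 with median scaling, -0.0108 against GSCLC_2 and GSCLC_3 and -0.0576 against GSCLC_1 and GSCLC_3. Ccnd2 was at -0.0751 with median scaling, -0.0107 against GSCLC_2 and GSCLC_3 and -0.0756 against GSCLC_1 and GSCLC_2. Ddx4 was at -0.000757 with median scaling. Against GSCLC_1 only, Crym was at 0.322, Pou5f1 at -0.206 and Tuba3b at -0.21. Sox2 was at 0.0202 against GSCLC_2 and GSCLC_3 and 0.122 against GSCLC_1 and GSCLC_2, and Sfi1 at 0.0231 against GSCLC_1 and GSCLC_3. Leaving out 1 library at a time, Ret ranged from -0.103 to 0.109, Zbtb16 from -0.292 to 0.0315, Crym from -0.446 to 0.0618, H19 from -0.23 to 1.47 and Nanos2 from -0.598 to 1.29, each between both GSCLC_4 cultures. Ccnd2 ranged from -0.0919 to 0.148 and Bcl6b from -0.0811 to 0.371, each between both GSCLC_3 cultures.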
